A study of Homo sapiens with 12 samples.

Results

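Untreated BEAS-2B cells were compared with untreated A549 cells, gene by gene, on Illumina bead arrays. The comparison took the control arrays of the series, 2 for BEAS-2B and 2 for A549, which were 4 of its 12 arrays, and it covered every gene that passed a detection filter. BEAS-2B is a human bronchial epithelial line immortalised with an adenovirus and SV40 hybrid virus, and A549 is a line from a human lung adenocarcinoma. Both lines were serum-starved overnight, and the control cells of each then received medium alone. The other 8 arrays held the same lines after 1 or 6 h with a 0.25% extract of settled poultry dust. They entered the fit as a shared estimate of the spread and as a second look at the line difference. They also entered the normalization, the detection filter and the choice of the probe for each gene. The labels give no time for the controls, and they do not say whether the 2 arrays of a group came from separate cultures, so the p-values measure the spread between arrays, which may be technical. The arrays measured RNA of whole cultures, so fewer cells with a transcript and less of it per cell cannot be told apart.

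A549 cells carry traits of alveolar cells and are known as a line with loss of KEAP1 function, which leaves the oxidative stress regulator NRF2 active, and with a deleted CDKN2A gene. BEAS-2B cells keep traits of the bronchial epithelium, where basal cells with keratins 5 and 14 renew the lining, and they carry the SV40 T antigen, which binds RB and p53. Genes of the interferon response, such as the OAS, IFIT and MX families, are low in most resting epithelial cells and rise together when interferon receptors signal to the transcription factor ISGF3.

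The 12 arrays had median raw signals between 79.5 and 95.0, and detected between 37.5 and 41.1% of the 47320 probes at a detection p under 0.05. All 12 shared 1 chip, with A549 on positions 1 to 6 and BEAS-2B on positions 7 to 12, so chip position and cell line cannot be told apart. Values below are log2 signals after background correction and quantile normalization, and the 2 arrays of a line are given in the order of their replicate numbers. The number of arrays limits the precision of every value. Pearson correlations over all features were 0.966 between the BEAS-2B control arrays, 0.981 between the A549 control arrays and 0.871 to 0.897 between lines. The BEAS-2B arrays numbered 1 and 2 lay apart in a large group of interferon-stimulated genes, described further down, so calls were also counted without all 3 BEAS-2B arrays numbered 1 or all 3 numbered 2 (below, without number 1 or without number 2). Counts given for a gene list are accompanied by these counts where one of them differed by over 1.5 times.

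Of the labelled cell types, the pan-epithelial markers KRT8, KRT18, EPCAM and CDH1 were detected on all 4 control arrays. Of 7 airway basal markers with a probe, 4 were detected on both BEAS-2B arrays and 1 on both A549 arrays. Of 9 alveolar type II markers with a probe, 1 was detected on both BEAS-2B arrays and 2 on both A549 arrays, and SFTPC, SFTPA1 and NKX2-1 were detected on none of the 4. The 4 endothelial markers PECAM1, VWF, CDH5 and KDR were likewise detected on no control array. The 5 immune markers with a probe were mixed. CD14 and CD68 were detected on all 4 control arrays and ITGAM on both A549 arrays, while PTPRC and CD3E were detected on none.

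In the limma fit over all 12 arrays, 4481 of 20060 features (22.3%) differed between untreated BEAS-2B and untreated A549 at a Benjamini-Hochberg adjusted p under 0.05. Of these, 2169 (10.8%) were higher and 2312 (11.5%) were lower in BEAS-2B. Named genes made up 3569 of the calls, 1740 higher and 1829 lower, and the other calls were probes with no gene name. Of the 13005 named genes on chromosomes 1 to 22 and X, 13.4% were higher and 14% lower. The gene lists below hold named genes only, so their counts are to be read beside these shares and those over all features. A count near these shares, such as that of the higher cytokine receptors, is no result about the list. The difference was over 2-fold in 3013 features (15%), 1391 higher and 1622 lower, and over 16-fold in 66 that were higher and 102 that were lower. The 2 arrays of BEAS-2B did not overlap the 2 of A549 in 11829 features (59%). The median difference over all features was 0.02, and the median SE of a difference was 0.26. Leaving out A549 control array 1, A549 control array 2 or BEAS-2B control array 1 lowered the number of calls to 2712, 2817 or 2926. The scatter of the mean levels shows the calls on both sides of the diagonal over the whole range of signal.

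**Figure D1:**
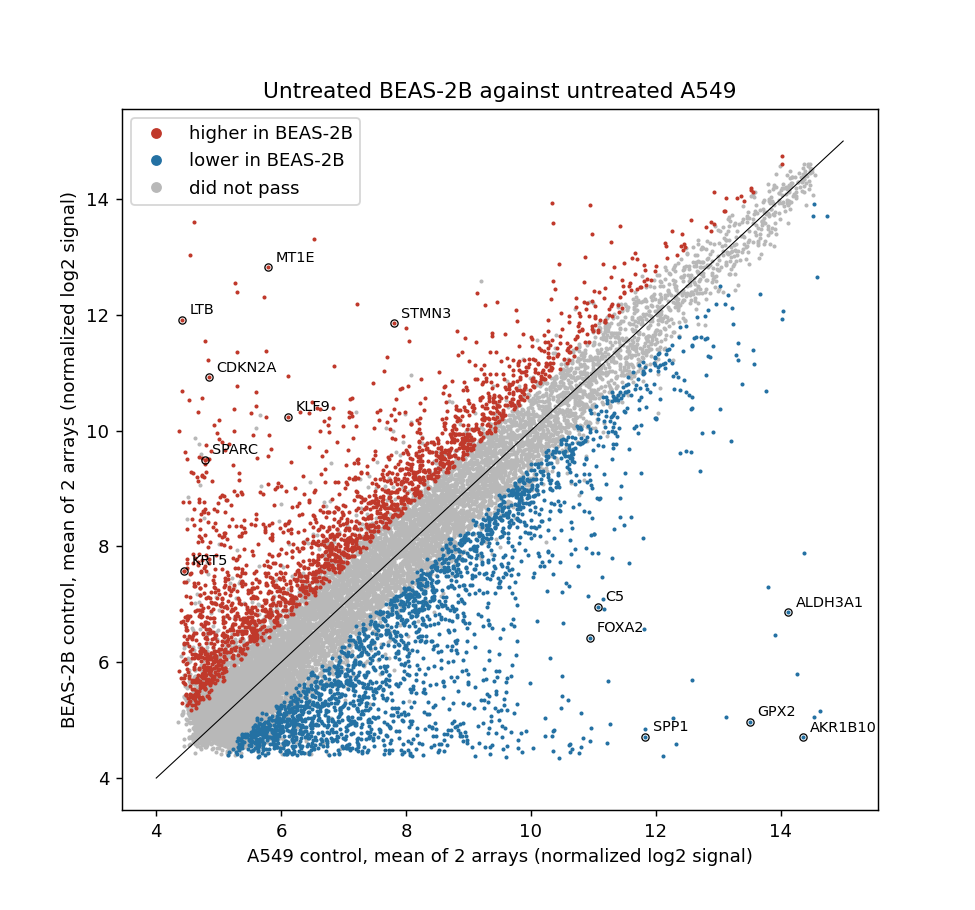
Mean log2 signal of each feature in untreated BEAS-2B (vertical axis, 2 arrays) against untreated A549 (horizontal axis, 2 arrays), with features that were higher or lower in BEAS-2B at an adjusted p under 0.05 in colour. The called features lie on either side of the line of equal signal, and the circled genes include AKR1B10 and GPX2 on the A549 side and LTB and CDKN2A on the BEAS-2B side.

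Among genes detected on all 4 control arrays, and no more than 2-fold apart between the arrays of either line, the metallothionein MT1E had the largest excess in BEAS-2B. MT1E read 12.37 and 13.27 in BEAS-2B, against 5.71 and 5.89 in A549, a difference of 7.02 ± 0.35 (SE; adjusted p = 2.71e-07), although its other probe gave only 1.08. KLF9, a Krüppel-like transcription factor, read 9.94 and 10.53 in BEAS-2B, against 6.09 and 6.14 in A549 (difference 4.12 ± 0.22). STMN3, a stathmin that destabilises microtubules, read 11.93 and 11.78 in BEAS-2B, against 7.75 and 7.87 in A549 (4.05 ± 0.19). The groups of these genes were far apart beside the gap between arrays of a line. The genes were chosen for this, so it is no separate result. The other genes at the top were SERTAD4-AS1 (3.94), the basement membrane protein LAD1 (3.86), the p38 kinase MAPK13 (3.81), the amylase AMY1A (3.79), the AXL ligand GAS6 (3.74), the TNF receptor family member TNFRSF14 (3.58), the transcription factor IRF1 (3.498), the growth factor MDK (3.43) and PHLDB1 (3.42). Other probes of some of these genes gave smaller differences, 0.08 for LAD1, 0.15 and 1.52 for GAS6 (with 3.78 on another) and 2.13 for MDK, and AMY1A has near-identical amylase paralogs that its probe may also bind, so the values of these genes are uncertain.

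On the A549 side the aldo-keto reductases AKR1C4 and AKR1C3, which reduce steroids and reactive carbonyls, came first. AKR1C3 read 8.16 and 7.63 in BEAS-2B, against 14.35 and 14.39 in A549, and was 89.2-fold lower in BEAS-2B (adjusted p = 3.87e-08). DNAJC12, a J-domain cochaperone, read 5.44 and 5.25 in BEAS-2B, against 10.79 and 10.39 in A549 (difference -5.24 ± 0.23). SRGN, the core protein of the proteoglycan serglycin, read 5.66 and 5.88 in BEAS-2B, against 10.28 and 10.72 in A549 (-4.73 ± 0.30). As in every feature called lower, all 3 were lower on each BEAS-2B array than on either A549 array. They were followed by the endodermal transcription factor FOXA2 (-4.52), the myosin phosphatase inhibitor PPP1R14A (-4.33), the lactonase PON3 (-4.25), the inhibitory SMAD SMAD6 (-4.24), complement C5 (-4.11), the heat shock protein HSPA2 (-4.11), the WAVE complex subunit CYFIP2 (-3.99, and -1.87 on its other probe) and the phosphatase subunit PPP2R2C (-3.92, and -3.78 and -0.52 on its other probes).

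Another 771 features were detected on both BEAS-2B arrays and on neither A549 array, and 1062 the other way round. Folds of such genes are lower bounds, set by the dimmest detected probe of the arrays that lacked them. The genes of this kind given here are the 12 brightest in each direction that lay no more than 2-fold apart between the arrays of the line that had them, which leaves out, among others, HLA-B, COL8A1, BST2 and CEACAM6, described further down. LTB, the lymphotoxin beta subunit, read 12.18 and 11.65 in BEAS-2B and was not detected in A549, at least 104-fold higher (adjusted p = 1.06e-05). It was followed by CDKN2A (at least 52.2-fold), the acute phase protein SAA1 (34.5-fold on its brightest probe, with differences of 1.06 and 3.69 on its other probes), the transcription factor SOX15 (29.3-fold), the basal cell protein S100A2 (23.2-fold), the cystatin CST6 (21.2-fold) and P-cadherin, CDH3 (19.6-fold). EGFLAM, the matrix protein SPARC, the GTPase RAC2 and the homeobox gene IRX4 followed, with bounds of 19.5, 19.4, 16.7 and 15.8-fold, and then the cochaperone DNAJA4 (15.04-fold). Other probes of LTB, CDKN2A and EGFLAM gave smaller log2 differences of 4.94, 4.78 and 2.79, so their bounds hold for their brightest probes only.

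In the other direction the aldo-keto reductases came first. AKR1C2 read 5.22 and 5.09 in BEAS-2B, against 14.59 and 14.66 in A549, at least 668-fold lower in BEAS-2B (adjusted p = 2.99e-10). AKR1B10, a reductase of retinal and other aldehydes, read 4.62 and 4.78 in BEAS-2B, against 14.45 and 14.26 in A549, at least 554-fold lower. The glutathione peroxidase GPX2 read 5.12 and 4.83 in BEAS-2B, against 13.66 and 13.36 in A549, at least 307-fold lower. The AKR1C genes, and AKR1B10 with AKR1B15 (at least 136-fold lower), are near-identical copies whose probes may bind each other's transcripts. The other probes of AKR1C2 gave smaller log2 differences in the same direction, -0.82, -2.18, -3.80 and -2.20, so its bound holds for its brightest probe only. GCNT3, which branches mucin-type glycans, was at least 117-fold lower, and the secreted phosphoprotein SPP1 at least 96.3-fold lower. The pregnancy-associated protease PAPPA, the cyclooxygenase PTGS2, the metalloprotease MMP7, the collagen chain COL5A2 and the exporter ABCC2 had bounds of 52.7, 48.0, 42.7, 41.7 and 41.7-fold. Other probes gave log2 differences of -4.11 for PTGS2, -5.41 for MMP7 and -6.43 for SPP1. HGD, a tyrosine breakdown enzyme, was at least 34.9-fold lower on its brightest probe, which was not above background in BEAS-2B, but its other probe was detected in BEAS-2B and gave a difference of -1.57. Some genes described below were above background on 1 of the 2 arrays of their dim line. Among them were CA12, CYP24A1, CYP4F11, NRG1 and CEBPA in BEAS-2B, and PSMB9, SERPINA1, IFITM1, MX1, PLAT, F3, C3 and SNAI2 in A549. Their differences are given as measured, although 1 array of that line read at background.

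**Figure D2:**
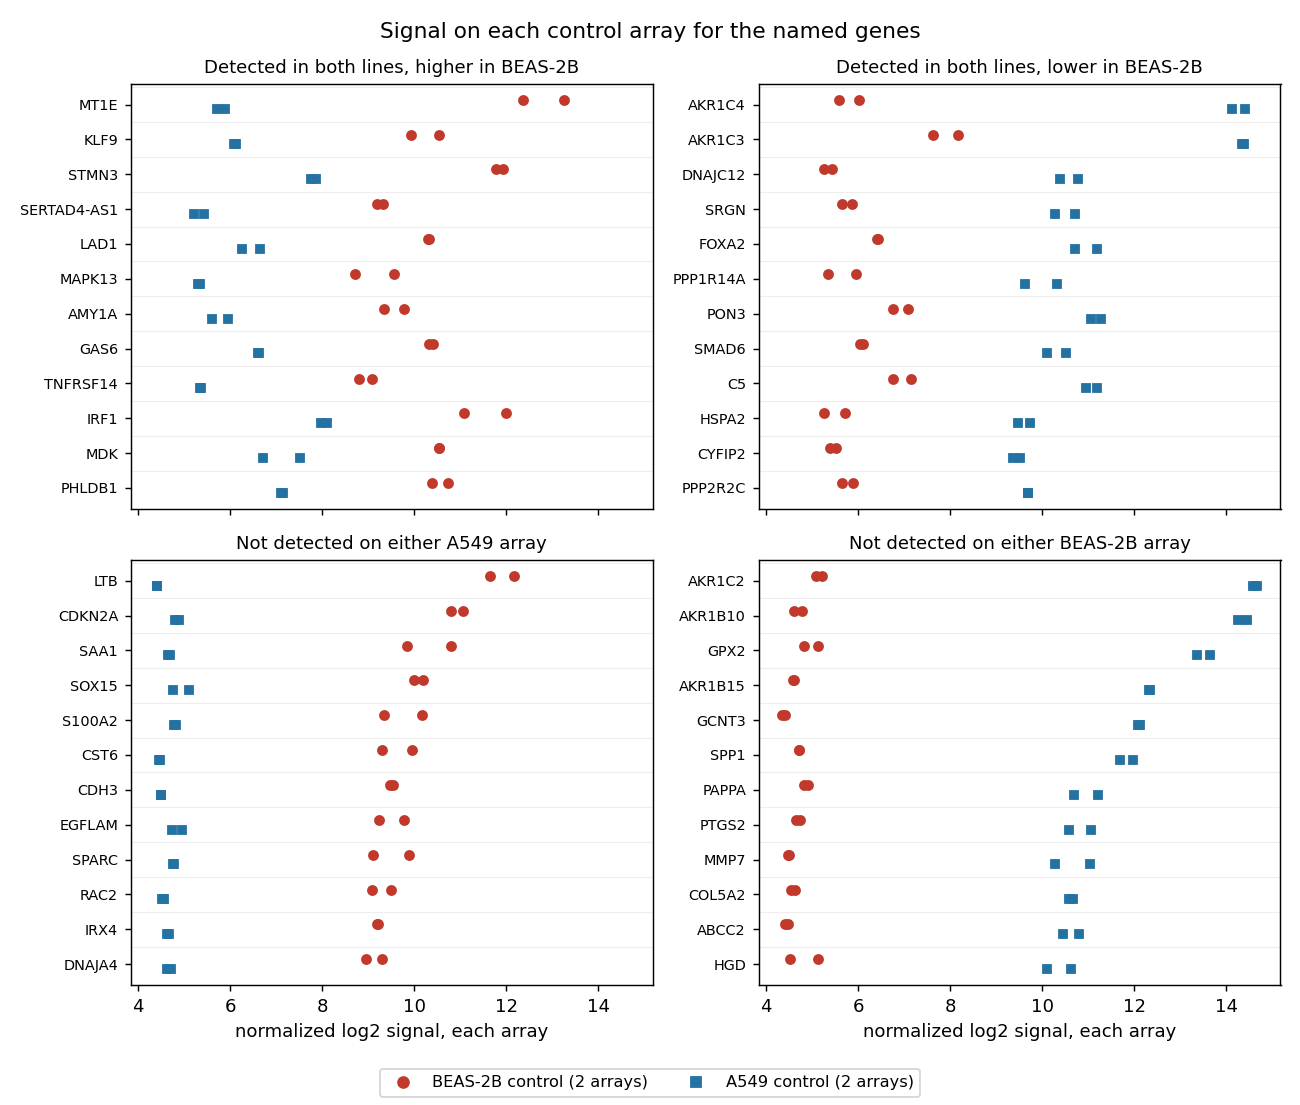
Log2 signal of the genes named above on each control array, with BEAS-2B arrays and A549 arrays as separate colours and 1 point per array. The upper panels hold genes detected on all 4 arrays and the lower panels genes detected in 1 line. In every row the points of a line lie closer to each other than to those of the other line. The genes were chosen for a difference between lines and a small gap between arrays, so this pattern is no separate result.

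NRF2 target genes were lower in BEAS-2B almost throughout. Of 26 measured genes in the list, 24 were lower, 0 were higher (also 0 at an unadjusted p under 0.05 in the limma fit) and 2 did not pass, against 11.5% lower over all features, and the list's median difference was -2.60, against 0.02 over all features. Besides AKR1B10, AKR1C2, AKR1C3, GPX2 and ABCC2, the epoxide hydrolase EPHX1 read 5.46 and 6.23 in BEAS-2B, against 9.85 and 9.14 in A549 (difference -3.65 ± 0.39; adjusted p = 8.42e-05). UGDH, which makes UDP-glucuronate, read 8.24 and 8.06 in BEAS-2B, against 11.88 and 11.70 in A549 (-3.64 ± 0.21). The cystine carrier SLC7A11 was not detected in BEAS-2B and read 8.11 and 8.02 in A549, at least 7.09-fold lower. The heme oxygenase HMOX1 (-3.35), the exporter ABCC3 (-2.93), the sulfiredoxin SRXN1 (-2.79), the glutamate-cysteine ligase subunits GCLM (-2.49) and GCLC (-2.20), and the quinone reductase NQO1 (-1.97) were lower too.

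Enzymes of the list that form NADPH were lower as well. PGD, of the pentose phosphate pathway, read 10.40 and 10.36 in BEAS-2B, against 13.03 and 13.04 in A549 (difference -2.66 ± 0.21; adjusted p = 1.06e-05). Malic enzyme ME1 was lower by a similar amount (-2.65 ± 0.23). The reductases GSR (-2.11) and TXNRD1 (-1.57), which use NADPH to reduce glutathione and thioredoxin, and transaldolase TALDO1 (-1.03), of the non-oxidative pentose phosphate pathway, were also lower. Thioredoxin, TXN, read 13.74 and 13.44 in BEAS-2B, against 14.19 and 14.06 in A549, and did not pass (-0.54 ± 0.24; adjusted p = 0.139). TRIM16L was not detected on any control array, and its difference of 0.16 did not pass.

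NRF2 binds DNA with small MAF proteins at the antioxidant response element. The promoters of GPX2, EPHX1 and PGD are shown because these genes carry the element's core and were among those lower in BEAS-2B. The RefSeq promoter table lists 1 or more transcript starts for a gene, and each sequence is the 250 bases before a listed start on GRCh38.p14, read along the gene's strand (for EPHX1, 1 of 3 listed starts, which lies within the annotated gene): chr14:64942746-64942995 on the minus strand for GPX2, chr1:225825104-225825353 on the plus strand for EPHX1 and chr1:10398814-10399063 on the plus strand for PGD. Capitals mark TGACNNNGC, the core of the element, on either strand.
GPX2: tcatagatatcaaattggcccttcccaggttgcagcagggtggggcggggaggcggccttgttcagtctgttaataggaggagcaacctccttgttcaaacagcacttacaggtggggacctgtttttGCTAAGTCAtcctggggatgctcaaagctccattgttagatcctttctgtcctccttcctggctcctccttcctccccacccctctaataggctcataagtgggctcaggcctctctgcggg
EPHX1: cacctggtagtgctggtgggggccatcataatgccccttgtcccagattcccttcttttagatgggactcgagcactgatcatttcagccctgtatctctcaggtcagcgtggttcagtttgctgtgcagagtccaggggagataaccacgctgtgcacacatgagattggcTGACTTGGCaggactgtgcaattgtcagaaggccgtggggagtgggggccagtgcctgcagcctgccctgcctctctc
PGD: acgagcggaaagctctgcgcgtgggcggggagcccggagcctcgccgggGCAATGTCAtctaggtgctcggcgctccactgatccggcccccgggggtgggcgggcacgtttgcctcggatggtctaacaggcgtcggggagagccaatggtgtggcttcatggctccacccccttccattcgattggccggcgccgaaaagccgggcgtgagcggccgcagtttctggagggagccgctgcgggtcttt

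Of the 20 measured NRF2 list genes with a promoter sequence, 8 (40%) held this motif between 250 bases before and 50 after any listed start, as did 16.1% of 27305 genes in the table. By start, 9 of 24 (37.5%) held it, as did 13.3% of 35116 starts in all. Among the 12 without it were AKR1C2, AKR1C3, NQO1 and GCLC, which were lower in BEAS-2B as well. A match is a run of letters and not a measured binding site.

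Of 23 measured aldo-keto reductases and aldehyde dehydrogenases, enzymes that reduce carbonyls or oxidise aldehydes, 10 were lower and 2 were higher in BEAS-2B (13 and 1 without number 2). AKR1B10, AKR1C2 and AKR1C3 are in the NRF2 list too, and of the other 20 genes 7 were lower. ALDH1A1, a retinal dehydrogenase, read 4.82 and 5.27 in BEAS-2B, against 14.71 and 14.36 in A549, and was 717-fold lower (adjusted p = 1.71e-09), with 1 of the 2 BEAS-2B arrays above background. ALDH3A1 read 5.70 and 8.02 in BEAS-2B, over 2-fold apart, against 14.25 and 13.996 in A549 (difference -7.26 ± 0.92). The mitochondrial ALDH2 was also lower (-3.08), whereas ALDH1A3, another retinal dehydrogenase, read 9.89 and 10.75 in BEAS-2B, against 6.72 and 7.47 in A549 (3.23 ± 0.44). Of 32 cytochromes and conjugating enzymes, 11 were lower and 3 higher (7 and 3 without number 1). The vitamin D hydroxylase CYP24A1 (-5.26) and the fatty acid hydroxylases CYP4F11 (-4.49) and CYP4F3 (at least 11.5-fold) were lower.

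Genes of liver-type plasma proteins and enzymes were the other large group on the A549 side, with 11 of 17 lower, 3 higher and a median of -1.77, or -1.21 with genes below background in 1 line at their bound. Without number 1, 8 were lower and 1 was higher, and without number 2, 9 were lower and 1 was higher. The fibrinogen chains read close to background in BEAS-2B: FGB read 4.71 and 4.83 there, against 11.07 and 8.63 in A549, at least 24.3-fold lower (adjusted p = 0.00191). FGG was at least 20.6-fold lower. FGA and the fibrinogen-like FGL1 were at least 46.9 and 64.8-fold lower on their brightest probes, which were not above background in BEAS-2B, but each had another probe that was detected on at least 1 BEAS-2B array. The bile acid conjugating enzyme BAAT was at least 7.04-fold lower. Within A549, 10 of the 17 genes lay over 2-fold apart between the 2 control arrays. The protease inhibitor SERPINA1 went the other way and read 9.90 and 8.92 in BEAS-2B, against 5.63 and 4.84 in A549 (difference 4.17 ± 0.42). Complement factors CFB (3.57) and C3 (2.36) passed as well, but neither did without number 1 (3.05, adjusted p = 0.146, and 2.38, adjusted p = 0.0774) or without number 2 (4.09, adjusted p = 0.0550, and 2.35, adjusted p = 0.0697), nor without A549 control array 2 (2.36, adjusted p = 0.166, and 1.63, adjusted p = 0.0988), and CFB did not without BEAS-2B control array 1 (adjusted p = 0.112). Albumin, ALB, read 5.58 and 6.04 in BEAS-2B, against 7.51 and 5.77 in A549, and did not pass (adjusted p = 0.519).

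Among 24 measured lineage transcription factors, 11 were lower and 1 was higher in BEAS-2B (12 and 2 without number 1). FOXA2 read 6.42 on both BEAS-2B arrays, against 10.71 and 11.18 in A549 (difference -4.52 ± 0.28; adjusted p = 1.35e-06). Its relative FOXA1 (-3.36), the granulocyte and lung factor CEBPA (-2.14), HOXB7 (-2.44) and ID1 (-2.23) were lower as well, as were FOXA3 (at least 3.89-fold), the secretory cell factor SPDEF (at least 5.05-fold) and SOX2 (at least 2.61-fold). SOX15, a SOX factor of squamous epithelia, read 9.995 and 10.19 in BEAS-2B and was not detected in A549. It was the only higher member at the fit's threshold.

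Airway basal cell genes lay on the BEAS-2B side, with 7 of 13 higher, 0 lower (0 at an unadjusted p under 0.05) and a median of 1.96 (1.55 with genes below background in 1 line at their bound), against 10.8% higher over all features. Keratin 5, KRT5, read 8.07 and 7.09 in BEAS-2B and was not detected in A549, at least 5.14-fold higher (adjusted p = 0.000112). The serpin SERPINB5 read 10.39 and 8.70 in BEAS-2B, over 2-fold apart, and was not detected in A549, at least 20.02-fold higher. The integrin ITGB4 (2.37) and the desmosomal cadherins DSC3 (2.21) and DSG3 (at least 2.94-fold) were higher too. The laminin chain LAMB3 passed at 3.20, but it lay over 2-fold apart in BEAS-2B and did not pass without BEAS-2B control array 1 (2.29; adjusted p = 0.13), without A549 control array 1 (adjusted p = 0.0506) or without A549 control array 2 (adjusted p = 0.112). Of the classical markers that did not pass, KRT14 read 7.04 and 4.54 in BEAS-2B, against 4.65 and 4.43 in A549, and KRT15 was detected on none of the 4.

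Alveolar type II genes did not fall on a single side: of 8 measured, 1 was lower and 2 were higher in BEAS-2B (2 and 2 without number 2). The lamellar body transporter ABCA3 was not detected in BEAS-2B and read 8.27 and 7.64 in A549, at least 6.55-fold lower (adjusted p = 0.000791). The lysosomal protein LAMP3, which is also interferon-inducible, read 10.84 and 8.17 in BEAS-2B, and its brightest probe was not above background in A549, at least 19.5-fold higher, while its other probe gave a difference of 1.99. Syndecan 4, SDC4, was 14.1-fold higher and, like LAMP3, over 2-fold apart in BEAS-2B. The surfactant proteins SFTPB (0.27) and SFTPD (-0.14) did not pass. Of the type I cell genes, podoplanin, PDPN, read 7.39 and 7.71 in BEAS-2B and was not detected in A549, at least 5.03-fold higher.

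Of 14 keratins 3 were higher and 3 lower (5 and 3 without number 2). The simple epithelial keratin KRT8 read 10.90 and 10.25 in BEAS-2B, against 12.92 and 12.22 in A549 (difference -1.99 ± 0.34; adjusted p = 0.00191), and its partner KRT18 was lower by a similar amount (-1.88 ± 0.25). KRT16, a keratin of activated squamous cells, read 11.14 and 8.85 in BEAS-2B, over 2-fold apart, on a probe that was not above background in A549, at least 27.4-fold higher, but its other probe was detected on 1 A549 array and gave a difference of 0.27. KRT7 (-0.32) and KRT19 (0.11) did not pass. Among squamous differentiation genes 1 of 8 was higher, the transglutaminase TGM1 (at least 2.92-fold), and 2 were lower, cornifelin CNFN (-3.15) and KRT10 (-1.14). Over all features 10.8% were higher, so the single higher member lay near that share. Among secretory and ciliated cell genes WFDC2 was the only called gene of 6, with 8.65 on both BEAS-2B arrays and no detection in A549.

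Cell junction genes split, with 7 of 17 higher and 3 lower in BEAS-2B. The tight junction protein CLDN7 read 8.60 and 8.95 in BEAS-2B and was not detected in A549, at least 11.7-fold higher (adjusted p = 6.11e-07). EPCAM, an epithelial adhesion molecule, read 10.59 and 10.85 in BEAS-2B, against 7.85 and 7.96 in A549 (difference 2.81 ± 0.23). The desmosomal plakophilin PKP3 was at least 3.48-fold higher. CLDN2, a claudin of leaky epithelia, was not detected in BEAS-2B and at least 20.3-fold lower, and connexin 43, GJA1, was 12.1-fold lower. E-cadherin, CDH1, read 10.40 and 10.61 in BEAS-2B, against 9.64 and 7.74 in A549, where the arrays lay over 2-fold apart, and it did not pass (1.81 ± 0.62; adjusted p = 0.0602).

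Genes of a mesenchymal state were higher in 6 and lower in 1 of 15. SPARC read 9.89 and 9.11 in BEAS-2B and was not detected in A549, and the transcription factor TWIST1 read 8.10 and 7.74 in BEAS-2B, against 5.43 and 5.62 in A549 (difference 2.39 ± 0.29; adjusted p = 0.000193). The receptor kinase AXL (1.94), the crosslinking enzyme LOX (at least 2.81-fold) and THY1 (at least 1.82-fold) were higher. SNAI2 passed at 2.93, but not without BEAS-2B control array 1 (1.97; adjusted p = 0.16), A549 control array 1 (0.0843) or A549 control array 2 (0.103). The member that fell was the calcium-binding S100A4, which read 5.94 and 6.98 in BEAS-2B, against 13.94 and 13.88 in A549, 174-fold lower. Vimentin, VIM, read 13.27 and 12.60 in BEAS-2B, against 12.94 and 12.86 in A549, and N-cadherin, CDH2, differed by -0.51, and neither passed.

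The 17 measured collagens split into 7 higher and 5 lower. The short-chain collagen COL8A1 read 11.47 and 9.88 in BEAS-2B, over 2-fold apart, and was not detected in A549, at least 44.0-fold higher (adjusted p = 3.31e-05). COL16A1 (2.90) and COL6A1 (2.23) were higher, and COL5A2, COL18A1 (-2.61) and COL11A1 (at least 1.80-fold) were lower. The fibrillar chains COL1A2 and COL3A1 did not pass, whereas COL1A1 was higher by 1.28. Of 18 laminins and integrins 4 were higher and 4 lower (1 and 4 without number 1): the leukocyte integrin chain ITGB2 was higher by 2.29 (2.15, adjusted p = 0.0551, without the 3 BEAS-2B arrays numbered 1), and LAMB1 (-2.30), ITGB5 (-1.92) and ITGB1 (-1.40) were lower. Of the metalloproteases and their inhibitors 1 was higher and 5 were lower of 16 (3 and 4 without number 2). MMP7, an epithelial matrilysin with the bound given above, read 4.48 and 4.51 in BEAS-2B, not detected, against 11.04 and 10.28 in A549.

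CDKN2A, which encodes the cell cycle inhibitor p16 and the p53 regulator ARF, read 11.06 and 10.79 in BEAS-2B and was not detected in A549, where it read 4.81 and 4.89 (adjusted p = 3.87e-08). In the RefSeq gene order, its neighbours MTAP, an enzyme of adenine salvage, CDKN2B, another CDK inhibitor, and ELAVL2 were also detected on both BEAS-2B arrays and on neither A549 array. MTAP was at least 6.21-fold and CDKN2B at least 8.41-fold higher. Beyond them KLHL9, TUSC1, CAAP1, PLAA and IFT74 were detected in both lines, and IFNE, DMRTA1 and IFNA13, which lie among them, were detected on both A549 arrays and on neither BEAS-2B array. IFNE was lower in BEAS-2B (-1.84; adjusted p = 0.000198), whereas DMRTA1 (-0.48; adjusted p = 0.0998) and IFNA13 (-0.49; adjusted p = 0.307) did not pass. DNA copies were not measured.

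Other cell cycle genes leaned to the BEAS-2B side. Of 22 CDK inhibitors, cyclins and RB family members 7 were higher and 2 lower, against 10.8% higher and 11.5% lower over all features. Cyclin D2, CCND2, read 9.74 and 7.80 in BEAS-2B, over 2-fold apart, and was not detected in A549, at least 11.7-fold higher, while cyclin D3, CCND3, was lower (-1.80 ± 0.23). CDK2 was higher by 1.61, and CDKN1A, the p53 target that encodes p21, read 12.14 and 11.98 in BEAS-2B, against 12.16 and 11.92 in A549. Of 26 mitosis genes 15 were higher and 0 lower (0 at an unadjusted p under 0.05), against 10.8% higher over all features. Their median was 0.84, or 0.72 from BEAS-2B array 1 alone and 1.05 from array 2 alone. The mitotic kinesin KIF2C read 9.92 and 9.83 in BEAS-2B, against 7.75 and 7.79 in A549 (difference 2.11 ± 0.18; adjusted p = 1.9e-05). KIF20A (1.92), the ubiquitin-conjugating UBE2C (1.72), NUSAP1 (1.57) and the spindle factor TPX2 (1.47) were higher too, while MKI67 (0.54) and TOP2A (0.12) did not pass. Of 29 DNA replication genes 9 were higher, among them the helicase subunit MCM2 (1.32), and 1 was lower (8 and 0 without number 1, 4 and 1 without number 2). The lower gene was GINS4 (-1.30), which did not pass without A549 control array 2 (-1.13; adjusted p = 0.0971) or BEAS-2B control array 1 (-1.20; adjusted p = 0.075).

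Among 23 measured p53 targets 7 were lower and 3 were higher, against 11.5% lower and 10.8% higher over all features. The number of higher members thus lay near the share over all features. The stress cytokine GDF15 was not detected in BEAS-2B and read 9.35 and 9.54 in A549, at least 18.4-fold lower (adjusted p = 2.96e-05). SPATA18 (at least 2.26-fold), AEN (-1.30) and EDA2R (at least 1.30-fold) were lower, and CCNG1 (0.82) was higher. MDM2, the p53 ubiquitin ligase, differed by -0.13 and did not pass.

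Metallothioneins, small proteins that bind zinc and copper, were higher in 6 of 7 and lower in 0, with a median of 2.89. MT2A read 14.14 and 13.65 in BEAS-2B, against 10.89 and 11.01 in A549 (difference 2.95 ± 0.24; adjusted p = 1.17e-05). MT1X read 11.99 and 12.33 in BEAS-2B, against 9.34 and 9.21 in A549 (2.89 ± 0.20), and MT1G was detected only in BEAS-2B, at least 11.3-fold higher. MT1H did not pass, and MT1F, which passed at 1.79, did not without BEAS-2B control array 2 (1.23; adjusted p = 0.154), A549 control array 1 (0.0834) or A549 control array 2 (0.117). The MT1 genes are close copies, and a probe for 1 of them may bind others.

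HLA class I and antigen processing genes were higher in 13 of 16 and lower in 0, also at an unadjusted p under 0.05, with a median of 2.22. The immunoproteasome subunit PSMB9 read 10.64 and 9.71 in BEAS-2B, against 5.30 and 4.70 in A549 (difference 5.18 ± 0.43; adjusted p = 1.29e-05). PSMB8 was higher by 3.14, and HLA-B, with 12.64 and 10.46 in BEAS-2B, was not detected in A549, at least 80.4-fold higher. HLA-F (4.83) and HLA-C (3.20) were higher as well. Of the 16 genes, 7 lay over 2-fold apart in BEAS-2B, all higher on array 1. The list had 12 higher without the BEAS-2B arrays numbered 1, and 14 higher and 1 lower without those numbered 2. HLA genes are polymorphic and alike, so a probe may bind the alleles of 1 line better than those of the other. The light chain B2M passed at 2.42 but not without BEAS-2B control array 1 (2.00; adjusted p = 0.0606) or A549 control array 2 (1.84; adjusted p = 0.0767). In HLA class II, the peptide loading genes HLA-DMB, not detected in BEAS-2B and at least 19.6-fold lower, and HLA-DMA (-2.98 ± 0.27) were lower, and HLA-DRA was higher by 1.09, but not past the threshold without A549 control array 1 (1.07; adjusted p = 0.0534) or BEAS-2B control array 1 (0.99; adjusted p = 0.0602).

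**Figure D3:**
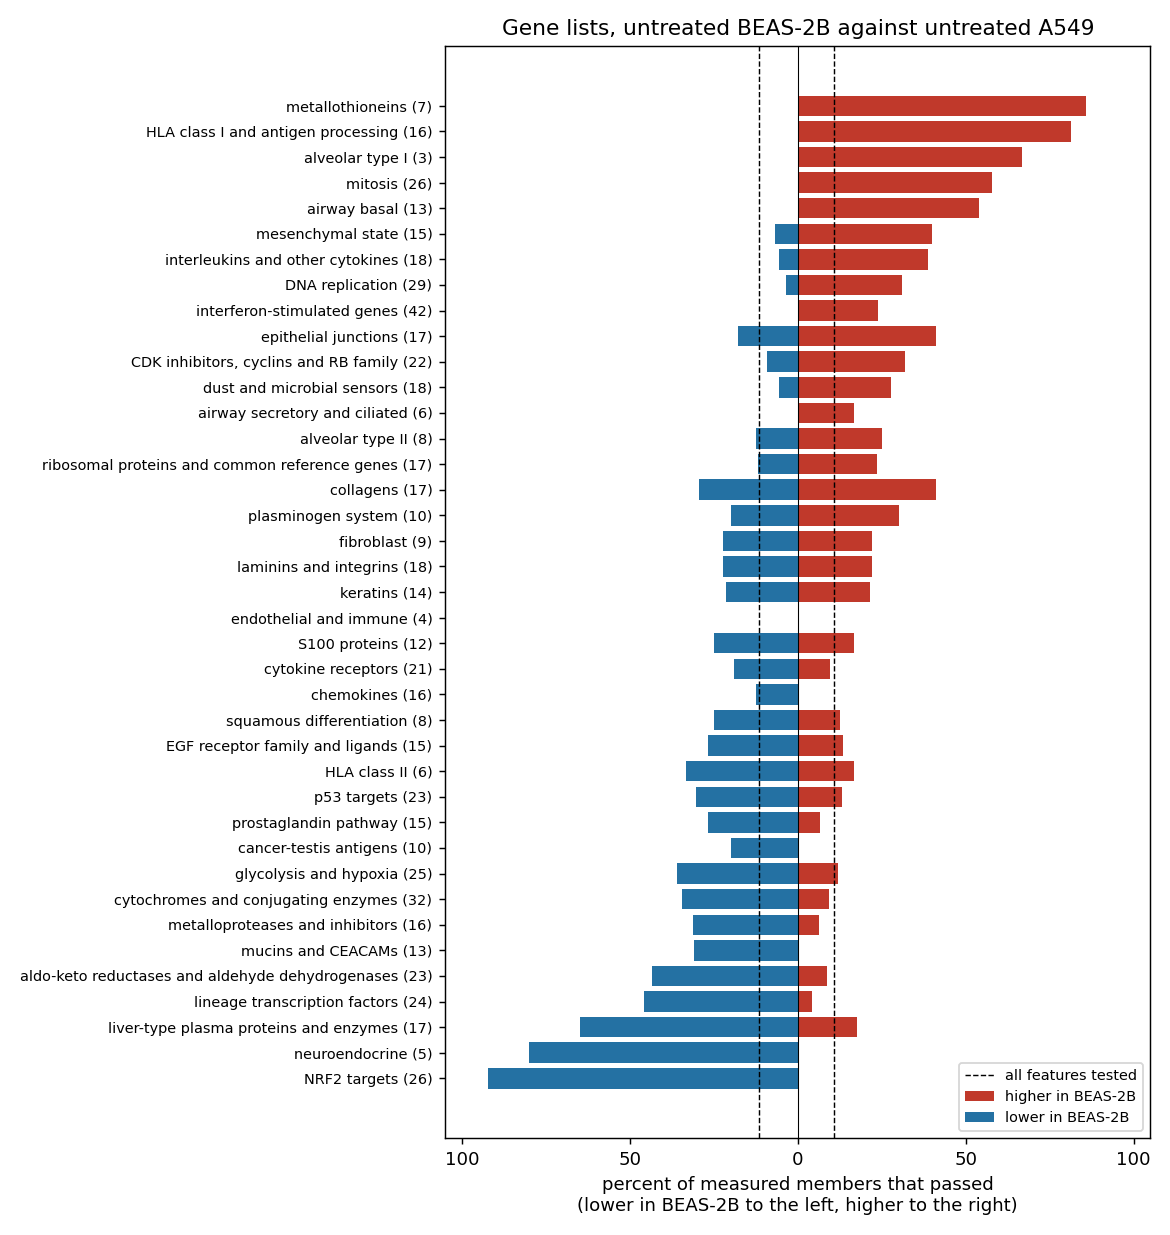
Share of the measured members of each gene list that were lower (bars to the left) or higher (bars to the right) in untreated BEAS-2B than in untreated A549 at an adjusted p under 0.05. Dashed lines mark the shares over all features, 11.5% lower and 10.8% higher; NRF2 targets have the longest bar to the left, 24 of 26, and metallothioneins and HLA class I genes the longest bars to the right, 6 of 7 and 13 of 16.

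Of 18 measured interleukins and other cytokines 7 were higher and 1 was lower in BEAS-2B (6 and 2 without number 1, 8 and 1 without number 2), and 9 of the 18 lay over 2-fold apart in BEAS-2B. Beside LTB, IL1B read 8.25 and 7.20 in BEAS-2B and was not detected in A549, at least 5.66-fold higher (adjusted p = 4.2e-05). IL1A was at least 5.01-fold higher, and IL32 read 11.18 and 9.67 in BEAS-2B, against 5.77 and 5.42 in A549 (difference 4.83 ± 0.55). Each of these but LTB lay over 2-fold apart in BEAS-2B with array 1 higher. IL6, not detected in A549, passed but did not without BEAS-2B control array 1 (difference 2.94), A549 control array 1 or A549 control array 2. Nor did IL6 pass without number 1 or without number 2. IL15, which sustains natural killer cells, passed at -1.63 but not without number 2 (-1.30; adjusted p = 0.0745), BEAS-2B control array 2 (adjusted p = 0.127) or A549 control array 1 (adjusted p = 0.162).

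Of 16 chemokines 0 were higher (1 at an unadjusted p under 0.05) and 2 were lower, or 12.5%, against 22.3% called over all features. Their median was -0.02, which became 0.17 with median centring in place of quantile normalization. Without number 1, 0 were higher and 1 was lower, and without number 2, 4 were higher and 2 were lower. The 4 were CXCL10, CXCL11, CXCL16 and CCL5, named after their values were seen, and CXCL10 stood 5.25 above the A549 mean on BEAS-2B array 1 and 0.82 above it on array 2. The neutrophil attractant CXCL5 read 4.94 and 4.70 in BEAS-2B, not detected, against 10.54 and 9.29 in A549, at least 25.5-fold lower (adjusted p = 3.69e-05). CCL26 was at least 2.23-fold lower, but it did not pass without A549 control array 1 (-1.07; adjusted p = 0.0918) or BEAS-2B control array 1 (-1.43; adjusted p = 0.0562). CXCL8, the main neutrophil chemokine of airway cells, read 8.75 and 7.49 in BEAS-2B, against 8.72 and 7.74 in A549, and the groups overlapped. CXCL1 (-0.39) and CCL2 (-0.21) did not pass either.

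Of 18 sensors of dust and microbes 5 were higher and 1 was lower (5 and 0 without number 1, 10 and 0 without number 2), and 8 of the 18 lay over 2-fold apart in BEAS-2B. The DNA sensing adaptor STING1 read 8.77 and 8.16 in BEAS-2B and was not detected in A549, at least 9.48-fold higher (adjusted p = 2.68e-06). The inflammasome protease CASP1 read 9.25 and 8.28 in BEAS-2B and was not detected in A549, at least 11.7-fold higher. The lipopolysaccharide receptor TLR4 read 6.01 and 4.69 in BEAS-2B, against 4.66 and 4.40 in A549, and did not pass (0.82), but it did without number 2 (1.49; adjusted p = 0.0049). The thrombin receptor F2R read 14.59 and 14.48 in BEAS-2B, against 14.46 and 14.47 in A549, and its difference of 0.07 did not pass. Of 21 cytokine receptors, IL4R (1.49) and IFNGR2 (1.05) were higher and 4 were lower (3 and 3 without number 1, 3 and 2 without number 2), among them the chemokine scavenger ACKR3 (at least 5.58-fold) and the TNF receptor TNFRSF1A (-1.19). IFNGR2 did not pass without A549 control array 1 (0.92; adjusted p = 0.0813) or BEAS-2B control array 1 (0.99; adjusted p = 0.0613).

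In the prostaglandin pathway 4 of 15 genes were lower and 1 was higher (4 and 2 without number 2). PTGS2, which makes prostaglandin H2, read 4.74 and 4.65 in BEAS-2B, not detected, against 11.07 and 10.59 in A549. The phospholipase PLA2G4A, which releases arachidonate, was at least 6.40-fold lower, and HPGD, which inactivates prostaglandins, read 4.46 and 4.62 in BEAS-2B, not detected, against 9.05 and 9.64 in A549, at least 17.2-fold lower (adjusted p = 4.15e-07). The lower members of the list thus included enzymes of both synthesis and breakdown.

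Mucins and related surface proteins were lower in 4 and higher in 0 of 13, or in 1 at an unadjusted p under 0.05, and 2 were lower without either number. CEACAM6 was not detected in BEAS-2B and read 12.50 and 8.71 in A549, at least 41.2-fold lower (adjusted p = 0.0107), but it did not pass without A549 control array 1 (-4.13; adjusted p = 0.104), without number 1 (adjusted p = 0.0800) or without number 2 (adjusted p = 0.0771). The mucin-folding protein AGR2 read 5.45 and 7.68 in BEAS-2B, against 12.58 and 11.04 in A549 (difference -5.24), and did not pass without A549 control array 1 (-4.47; adjusted p = 0.0588) or BEAS-2B control array 1 (-4.13; adjusted p = 0.0505). MUC5B was detected on no control array, and MUC1 did not pass (1.45). Of 25 glycolysis and hypoxia genes 9 were lower and 3 higher, against 11.5% lower and 10.8% higher over all features. The carbonic anhydrase CA12 read 5.36 and 4.76 in BEAS-2B, against 13.10 and 13.13 in A549, 266-fold lower (adjusted p = 7.84e-09), with 1 of the 2 BEAS-2B arrays above background. The glucose carrier SLC2A3 was at least 17.0-fold lower. GPI (-1.89) and LDHB (-1.78) were lower and the aldolase ALDOC (1.81) was higher.

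Of 5 neuroendocrine genes 4 were lower and 0 higher, also at an unadjusted p under 0.05. The granin CHGB was not detected in BEAS-2B and read 7.66 and 6.88 in A549, at least 4.08-fold lower (adjusted p = 0.000874). The ubiquitin hydrolase UCHL1 read 10.70 and 10.07 in BEAS-2B, against 12.52 and 12.64 in A549 (difference -2.20 ± 0.34), and CHGA did not pass (-0.06). In the EGF receptor family and related growth factors, 2 of 15 were higher and 4 lower (5 and 3 without number 2): neuregulin NRG1 read 5.71 and 5.03 in BEAS-2B, against 9.20 and 9.94 in A549 (-4.20 ± 0.35), and FGFR4 was at least 8.88-fold lower. EGFR itself did not pass (0.73). The number of higher members of this list lay near the share over all features, 10.8%. In the plasminogen system, the activators PLAU (2.20) and PLAT (2.48) and tissue factor F3 (3.00) were higher and TFPI2 was lower (-2.35). Of 12 S100 proteins, S100P was at least 23.4-fold lower and S100A14 was higher by 1.65. The tumour antigen PRAME was at least 21.6-fold lower. Of 17 ribosomal protein and reference genes 4 were higher and 2 lower (2 and 0 without number 1, 4 and 1 without number 2). GAPDH (-0.47) and ACTB (0.19) did not pass.

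The 2 BEAS-2B control arrays differed by over 2-fold in 1138 features (5.67%), of which 589 were higher on array 1 and the rest on array 2. The 2 A549 control arrays did so in 427 (2.13%), and 55 features lay apart in both lines. Just inside the 2-fold line was PAQR4, with a log2 gap of 1.0001, and just outside it was a probe with no gene name, with 0.9997. Of the 1138, 843 were named genes, and 263 were called between the lines, 174 higher and 89 lower, which is 23.1%, against 22.3% of the other features. In 571 of the 1138 the arrays of the lines overlapped, whereas over all 20060 features they did not overlap in 11829 (59%). Calls that lay apart in neither line numbered 4091, of which 1967 were higher and 2124 lower.

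The genes furthest apart were interferon-stimulated. OAS2, an RNA-sensing synthetase, read 13.40 and 6.35 in BEAS-2B, against 4.71 and 4.54 in A549, and did not pass (difference 5.25 ± 2.497; adjusted p = 0.169). IFI27 read 13.09 and 6.43 in BEAS-2B, against 4.75 and 4.62 in A549, and IFI44L read 12.17 and 5.54 in BEAS-2B, against 4.55 and 4.46 in A549. Array 1 stood far above all 3 other arrays in each, and none of the 12 genes furthest apart passed. The others of the 12 were MX2, OAS1, RSAD2, OASL, IFIT1, SLC15A3, IFI44, IFIT3 and TRIM22, every one higher on array 1. OAS1 read 11.91 and 5.97 in BEAS-2B, against 8.85 and 9.66 in A549, so that the A549 arrays lay between the BEAS-2B arrays. Its difference was -3.29 without the BEAS-2B arrays numbered 1 and 2.66 without those numbered 2, and both passed (adjusted p = 0.00353 and 0.00722).

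All 42 measured genes of the interferon-stimulated list lay over 2-fold apart in BEAS-2B, each higher on array 1, by 1.51 to 7.05. Their median level was 11.79 on BEAS-2B array 1 and 7.59 on array 2, against 5.68 and 5.31 on the A549 arrays. Of the 42, 10 were higher between the lines and 0 lower, or 23.8%, against 22.3% called and 10.8% called higher over all features. Of named genes alone, 3569 of 13035 were called, 1740 of them higher. At an unadjusted p under 0.05 the counts of the list were 22 higher and 0 lower. Without the 3 BEAS-2B arrays numbered 1, 19 were higher and 2 lower, and without the 3 numbered 2 all 42 were higher, so the number of calls rests on which arrays are kept. Among the 50 named genes furthest apart, 28 were in this list and 47 were higher on array 1.

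Some interferon-stimulated genes were far above A549 on both BEAS-2B arrays. IFITM3, a membrane protein that blocks viral entry, read 14.10 and 12.50 in BEAS-2B, against 6.72 and 6.32 in A549 (difference 6.78 ± 0.61; adjusted p = 2.2e-05). IFITM1 read 13.90 and 11.21 in BEAS-2B, against 5.40 and 5.12 in A549 (7.30 ± 1.08), and the virus-tethering protein BST2 read 11.86 and 9.26 in BEAS-2B and was not detected in A549, at least 40.5-fold higher. These 3 passed also without either set of BEAS-2B arrays. The dynamin-like MX1 read 14.48 and 10.32 in BEAS-2B, against 5.39 and 5.20 in A549, and passed at 7.10 but not without BEAS-2B control array 1 (5.02; adjusted p = 0.0985), A549 control array 1 (0.062) or A549 control array 2 (0.0665). The ubiquitin-like ISG15 read 14.36 and 10.27 in BEAS-2B, against 5.46 and 5.98 in A549, and passed at 6.59 but not without BEAS-2B control array 1 (4.55; adjusted p = 0.0766) or A549 control array 1 (0.0621).

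The same gap stood on the dust-treated BEAS-2B arrays. These arrays did not define the gap, but they entered the detection filter and the choice of probe. The list was also chosen with earlier results of these data known, so they are not an independent check. After 1 h with dust extract all 42 list genes were over 2-fold higher on BEAS-2B array 1 than on array 2, with medians of 11.59 and 7.76. After 6 h all 42 were higher on array 1, 41 of them by over 2-fold, with medians of 10.75 and 7.42. In A549, 28, 28 and 29 of the 42 were higher on array 1 in control, at 1 h and at 6 h. Of all 1138 features apart in the BEAS-2B controls, 92.4% kept the direction of their gap at 1 h and 89.7% at 6 h in BEAS-2B, against 54.7% between the A549 controls. The labels do not say what the arrays that share a replicate number have in common.

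ISGF3 binds the interferon-stimulated response element. The promoters of IFI27, IFI44L and RSAD2, 3 of the genes furthest apart, are shown for the core of that element, GAAA and GAAA with any 2 bases between them, in capitals on either strand. Each sequence is the 250 bases before a start listed for the gene in the RefSeq table on GRCh38.p14, on the plus strand (1 of 2 listed starts for IFI27 and for RSAD2, both within the annotated gene): chr14:94110486-94110735 for IFI27, chr1:78620198-78620447 for IFI44L and chr2:6877527-6877776 for RSAD2.
IFI27: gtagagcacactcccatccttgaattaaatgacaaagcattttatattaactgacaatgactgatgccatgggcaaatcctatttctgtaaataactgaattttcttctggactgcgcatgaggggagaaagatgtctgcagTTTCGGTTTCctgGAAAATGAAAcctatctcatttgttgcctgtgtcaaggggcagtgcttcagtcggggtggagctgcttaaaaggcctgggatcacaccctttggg
IFI44L: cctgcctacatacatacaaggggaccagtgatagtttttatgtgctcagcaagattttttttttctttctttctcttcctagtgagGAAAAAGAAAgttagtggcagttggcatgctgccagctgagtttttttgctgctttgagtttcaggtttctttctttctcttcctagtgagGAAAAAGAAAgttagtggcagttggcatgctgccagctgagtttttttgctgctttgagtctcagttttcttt
RSAD2: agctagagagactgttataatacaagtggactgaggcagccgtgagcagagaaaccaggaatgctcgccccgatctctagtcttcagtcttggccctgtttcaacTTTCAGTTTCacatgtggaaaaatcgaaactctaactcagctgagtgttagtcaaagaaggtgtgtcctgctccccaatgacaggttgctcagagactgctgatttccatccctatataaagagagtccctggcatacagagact

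IFI27 and IFI44L held 2 copies each and RSAD2 held 1. Of the 34 measured list genes with a promoter sequence, 25 (73.5%) held the motif between 250 bases before and 50 after any listed start, as did 4.38% of 27305 genes in the table. By start, 30 of 45 (66.7%) held it, as did 3.57% of 35116. OAS1 and IRF9 were among the 9 without it in this window.

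**Figure D4:**
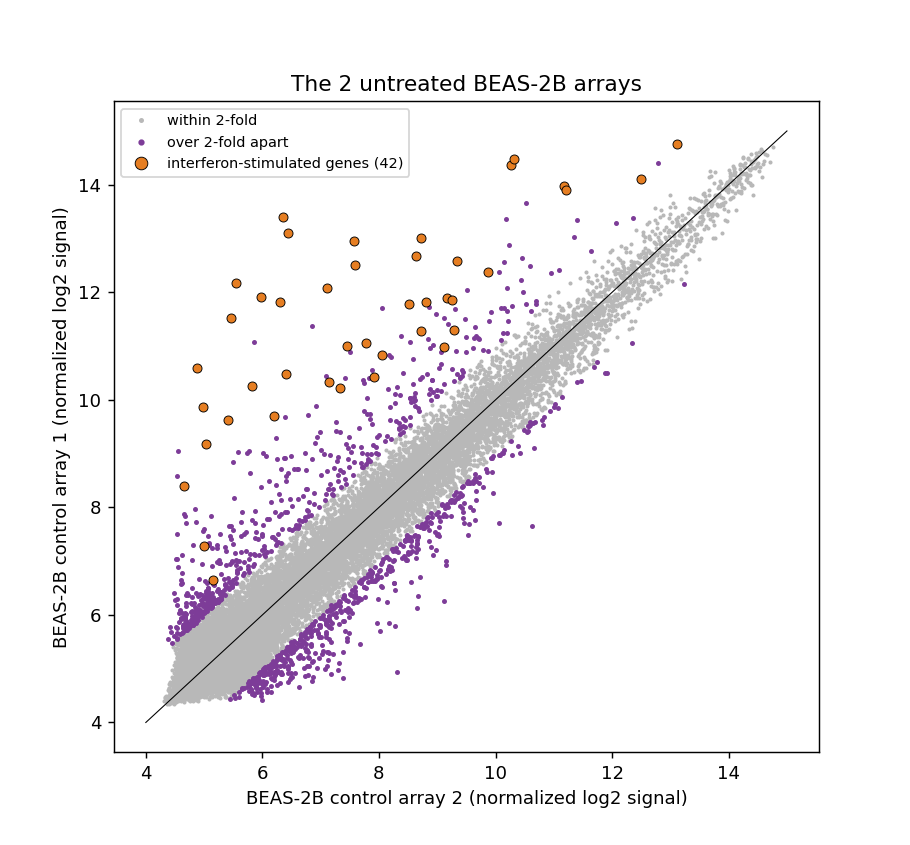
Log2 signal of each feature on BEAS-2B control array 1 (vertical axis) against BEAS-2B control array 2 (horizontal axis), with features over 2-fold apart and the interferon-stimulated genes in colour. All 42 interferon-stimulated genes lie above the diagonal, 1.51 to 7.05 from it.

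Among genes higher on BEAS-2B control array 2, S100A9 and ACO1 had large gaps. The calcium-binding S100A9 read 4.93 and 8.31 in BEAS-2B, against 6.46 and 4.65 in A549, and the iron-regulated aconitase ACO1 read 7.66 and 10.63 in BEAS-2B, against 11.001 and 10.71 in A549. Neither passed between the lines.

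Most control calls were called the same way in the dust-treated cells. BEAS-2B and A549 differed in 4609 features (23%) at 1 h and in 4326 (21.6%) at 6 h, and these fits use other arrays than the control comparison but the same estimate of spread. Of the 4481 control calls, 3662 (81.7%) were called the same way at 1 h and 3316 (74.0%) at 6 h, and 0 were called the opposite way at either time. Called the same way in all 3 comparisons were 3063 features, 1451 higher and 1612 lower. AKR1C3 differed by -6.48 in control, -6.72 at 1 h and -7.00 at 6 h, and MT1E by 7.02, 6.74 and 7.20. Of the NRF2 list's 24 lower genes, 23 were called lower at 1 h and 24 at 6 h.

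The line difference itself was tested for change against the control difference. At an adjusted p under 0.05 it changed for 0 of 20060 features at 1 h (497 at an unadjusted p under 0.05) and for 2 at 6 h (759), keratin 23, KRT23, and a probe with no gene name. The unadjusted counts are no result on their own, since that threshold also passes features that did not change. KRT23 differed by 0.27 in control, 1.64 at 1 h and 3.67 at 6 h (adjusted p of the change at 6 h = 0.0299). On the control arrays KRT23 was not detected in either line. It thus passed the detection filter only through dust-treated arrays, so its test of change is not separate from the filter. With 2 arrays per group the test of change can miss changes, so few calls do not show that the line difference stayed the same.

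Called genes were not spread evenly over the chromosomes. Of 13005 named genes on chromosomes 1 to 22 and X, 13.4% were higher and 14% were lower in BEAS-2B. On chromosome 22, 24.3% of 313 genes were higher and 7.03% lower, and on chromosome 9, which holds CDKN2A, 23.7% of 536 were higher and 7.84% lower. Chromosomes 21, 20, 1 and 5 had 22.5, 22.1, 21.1 and 20.1% higher. On chromosome 17, 4.92% of 793 genes were higher and 23.1% lower, and on chromosome 8, 5.68% of 475 were higher and 25.1% lower. Chromosomes 10, X and 4 had 21.8, 20.5 and 19.8% lower. The median difference ranged between -0.24 on chromosome 17 and 0.31 on chromosome 22. Chromosome copy number was not measured, and no test was run on these shares.

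**Figure D5:**
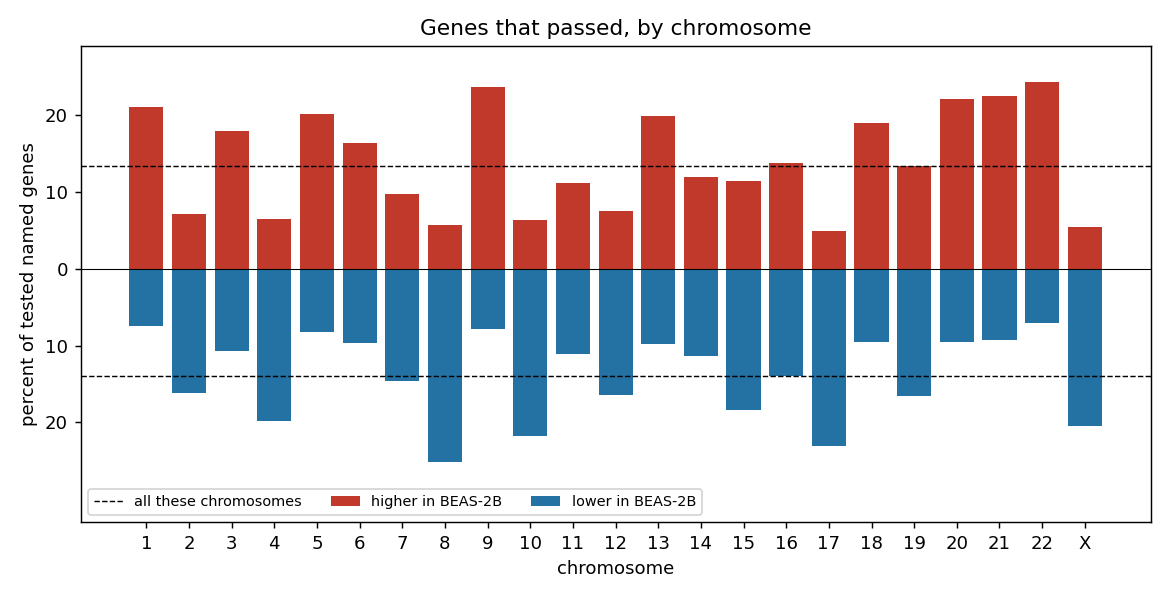
Percent of the named genes of each chromosome that were higher or lower in untreated BEAS-2B than in untreated A549 at an adjusted p under 0.05, with dashed lines at the shares over all 13005 genes, 13.4% higher and 14% lower. Chromosomes 22 and 9 have the largest shares higher, 24.3 and 23.7%, and chromosomes 8 and 17 the largest shares lower, 25.1 and 23.1%.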

How the data were processed

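RNA of 12 samples of A549 or BEAS-2B cells was hybridised to Illumina bead arrays, 2 arrays for each of 6 groups, 1 array per sample. The authors deposited, per the file headers, the mean bead intensity of each probe on each array with its detection p-value, and a separate matrix of normalized intensity values. GenomeStudio 2011.1 made them, per the submitters' processing notes. Another 24 columns, which give numbers of beads and their standard errors, were left out.

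Intensities were background-corrected with normexp, quantile-normalized and put on the log2 scale (neqc, offset 16; limma 3.58.1, R 4.3.3). The filter kept 24467 of 47320 probes, those whose detection p was below 0.05 in 2 or more arrays. Of all probes, 30112 had 1 gene symbol, 8 several and 17200 none, and symbols were matched to RefSeq by gene number for 30073. Each gene was represented by its brightest probe (3421 genes had several), giving 13035 named genes and 7025 unnamed probes. lmFit and eBayes fitted the 6 group means over 12 arrays, and p-values were adjusted by Benjamini-Hochberg over all 20060 features, with a threshold of 0.05. Differences are BEAS-2B minus A549. The fit was tested on simulated data with independent noise on each array, which does not cover the correlation between same-numbered arrays given below. Genes were called apart when the 2 control arrays of a line differed by over 2-fold.

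Genes were named by a rule: in each direction the 12 largest differences among called genes detected on all 4 control arrays and not apart in either line; the 12 brightest called genes detected on both arrays of 1 line, not apart there, and detected on neither of the other; the 12 furthest apart in BEAS-2B; and, per gene list, up to 6 called members and its defining genes. Some further list members are named to describe a pathway, chosen after their values were seen. Members and lists were chosen with earlier results of these data known. Bounds, in folds, set the bright line's mean against the dimmest detected signal of the dim arrays. Alternatives changed the background correction, the normalization, the filter, the probe rule, the arrays in the fit and the replicate block. Deviations of same-numbered arrays correlated at -0.05 to 0.05 between the lines, so replicate numbers were not shown to pair the lines. Within A549 they correlated at 0.404 to 0.468 and within BEAS-2B at 0.528 to 0.645, so same-numbered arrays of a line were not independent. The main fit treated all 12 arrays as independent, and its p-values leave this out. A random replicate block within line, with a consensus correlation of 0.333, called 4758 features, against 4481 in the main fit.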

Additional observations from a re-analysis of the deposited data

Results flagged for a closer look

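The difference between the lines itself changed with dust extract for KRT23, a keratin, by a test of that change. The BEAS-2B minus A549 difference was larger by 3.40 on the log2 scale at 6 h than in control (adjusted p = 0.0299, limma, over all features), and no control array of either line detected the gene. KRT23 passed the detection filter only through dust-treated arrays, so this test is not separate from the filter.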

How the results depend on the processing

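Of 239 genes that passed and that the naming rule chose or the text gives by value, 189 were called the same way under every setting tried, 50 were lost in at least 1 and 0 were reversed. With quantile normalization but no background correction, or with the authors' normalized matrix, features over 2-fold different numbered 1872, and those over 2-fold apart numbered 433 in BEAS-2B and 133 in A549. Leaving out 1 array gave 2712 to 4583 calls, 1247 to 2229 higher and 1465 to 2354 lower, with the fewest without A549 control array 1, A549 control array 2 (2817, 1297 and 1520) or BEAS-2B control array 1 (2926). It gave 2764 to 4597 calls at 1 h and 2712 to 4399 at 6 h, with low counts of 2764, 2830 and 3032 at 1 h and 2720, 2770 and 2712 at 6 h without A549 array 1, A549 array 2 or BEAS-2B array 1 of that time. The lone array left in a group is then assumed to vary like the other groups. A replicate block over all 12 arrays called 5215 features, and a random replicate block within line called 4758. The replicate numbers were not shown to pair the lines. Median centring moved the median difference of all features to 0.10.

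Among the genes followed in this way, differences that did not pass changed sign for 19. With 1 array left out, OAS1 ranged between -3.29 and 2.66, CCL2 between -1.37 and 0.95, CXCL1 between -1.01 and 0.23, CXCL8 between -0.75 and 0.52, ALB between -1.70 and 0.039, S100A9 between -0.62 and 2.76, KRT7 between -0.80 and 0.16, KRT15 between -0.21 and 0.099, KRT19 between -0.46 and 0.69, CHGA between -0.47 and 0.35, MDM2 between -0.49 and 0.23, TOP2A between -0.16 and 0.40, SFTPD between -0.55 and 0.27, SFTPB between -0.033 and 0.57, CDKN1A between -0.097 and 0.14, VIM between -0.30 and 0.37, ACTB between -0.046 and 0.42, TRIM16L between -0.046 and 0.38, and MUC5B between -0.059 and 0.20. Without background correction, or from the authors' matrix, OAS1 gave 0.043, and with median centring KRT15 gave 0.13 and CHGA 0.085. Without the BEAS-2B arrays numbered 1, ACTB gave -0.046, CCL2 0.95, CDKN1A -0.059, CHGA 0.35, KRT15 0.087, SFTPB -0.033, SFTPD 0.24, TRIM16L -0.046 and VIM -0.30. Without those numbered 2, CXCL8 gave 0.52, KRT7 0.16, KRT19 -0.46, MUC5B -0.059, OAS1 2.66 and S100A9 -0.62. The cause was not tested. The leave-outs of arrays by number, and the fit without features apart between control arrays, were chosen after seeing the data.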
